A study of Komagataella pastoris with 4 samples.

Results

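The genes described here encode the enzymes that act on isocitrate, together with the closely related homo-isocitrate dehydrogenase. They were chosen by identifier as 6 of the 5427 rows of the count table. The rows are a pair of NADP isocitrate dehydrogenases, a pair of subunits of the mitochondrial NAD isocitrate dehydrogenase, homo-isocitrate dehydrogenase and isocitrate lyase. All 6 passed the filter on low counts, so the values below cover every member.

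The libraries came from the methylotrophic yeast *Pichia pastoris* (*Komagataella phaffii*). GS115, a histidine auxotroph that carries MXR1, was compared with Dmxr1, which was made from GS115 by disrupting the MXR1 coding region with a zeocin resistance cassette and is also a histidine auxotroph. MXR1 encodes Mxr1p, a transcription factor with zinc fingers that responds to the carbon source. Each strain gave 2 libraries, from cells grown on ethanol in minimal medium for 14 h, and the comparison asked which transcripts depend on Mxr1p during growth on ethanol. The methods speak of duplicate cultures, so the p-values rest on 2 libraries per strain. The test estimates the spread of each gene partly from the other genes, so an SE is not that gene's own replicate spread.

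Isocitrate stands at a branch of central metabolism. In mitochondria, NAD isocitrate dehydrogenase oxidizes it to 2-oxoglutarate within the tricarboxylic acid cycle. NADP isocitrate dehydrogenases run the same reaction but yield NADPH, the reductant of biosynthesis and of antioxidant enzymes, and in *Saccharomyces cerevisiae* they occur as separate mitochondrial, cytosolic and peroxisomal isozymes. Isocitrate lyase instead splits isocitrate into glyoxylate and succinate, which bypasses the decarboxylation steps of the cycle and allows net synthesis of sugars from ethanol and acetate. Homo-isocitrate dehydrogenase carries out the corresponding oxidation in the lysine pathway of fungi.

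Both NADP rows, ACIB2EUKG770120 and ACIB2EUKG768327, carry the same description, the same UniRef name and the same KEGG entry in the table. The annotation assigns neither to a compartment. ACIB2EUKG770628, ACIB2EUKG772416 and ACIB2EUKG769565 share the description isocitrate/isopropylmalate dehydrogenase. Their UniRef names separate them, as NAD isocitrate dehydrogenase subunits for the first pair and as homo-isocitrate dehydrogenase (LYS12 in KEGG) for the last. Isocitrate lyase, ICL1, is ACIB2EUKG768919. The table holds no coordinates and no gene lengths, so CPM levels are compared between libraries for 1 gene at a time.

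Mxr1p binds short promoter elements named MXREs, whose 6 bases are a C, a C or T, a pair of C, any base, and a C or T. The study searched upstream regions of genes downregulated and upregulated in Dmxr1 in its separate microarray of methanol-grown cells. Only its list for upregulated genes was read here. Of the 6 isocitrate enzyme rows, that list holds 1, ICL1, with 3 elements. These elements are shown because ICL1 is one of the genes that rose in Dmxr1. The element is in capitals, with its 10 flanking bases on each side in lower case:
ICL1 element 1: tgtgtgggcgCCCCCTaaaacgtctt
ICL1 element 2: catctgcaacCCCCATcgaacctcat
ICL1 element 3: acttggtgatCTCCTCatcctgttca
Within each printed stretch the motif matched once on the strand shown and 0 times on the other. A match is a description of the letters only. No genome was used here, so the share of all promoters with such a match was not computed. The promoters of the other rows were not searched here, and the study's list for downregulated genes was not read.

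The libraries held between 24140235 and 29402357 counts. The first principal component of log2 CPM (counts scaled to 1000000 per library) separated the strains and carried 75.7% of the variance. The MXR1 row, ACIB2EUKG772516, had 287 and 405 CPM in GS115 and 206 and 258 CPM in Dmxr1 and did not pass the test (log2 fold change -0.58, edgeR adjusted p = 0.0787). Which part of the gene these reads cover was not tested, so the disruption is known from the labels and the methods only, and every direction below rests on the labels. Dmxr1 grew more slowly than GS115 on ethanol in the study, and growth and the disruption itself cannot be told apart in this design.

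Of the 6 isocitrate enzyme rows, 3 rose in Dmxr1 and 0 fell (by DESeq2 also 3 and 0, and at an unadjusted p under 0.05 in edgeR 5 and 0, where 13.5% of all genes were higher and 18.5% lower). NADP isocitrate dehydrogenase ACIB2EUKG770120 rose 3.15-fold, isocitrate lyase 2.23-fold and homo-isocitrate dehydrogenase 2.10-fold. The second NADP row and both NAD subunits had fold changes of 1.32, 1.31 and 1.39 and did not pass. A gene was called at an adjusted p of at most 0.05, from edgeR's quasi-likelihood test over all 5425 genes tested, together with a difference of at least 2-fold (1 in log2) in either direction. Of all genes, 0.535% were called higher and 3.26% lower. The study singled out some of these enzymes from the same samples, so the count of 3 is not independent evidence of a direction.

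**Figure D1:**
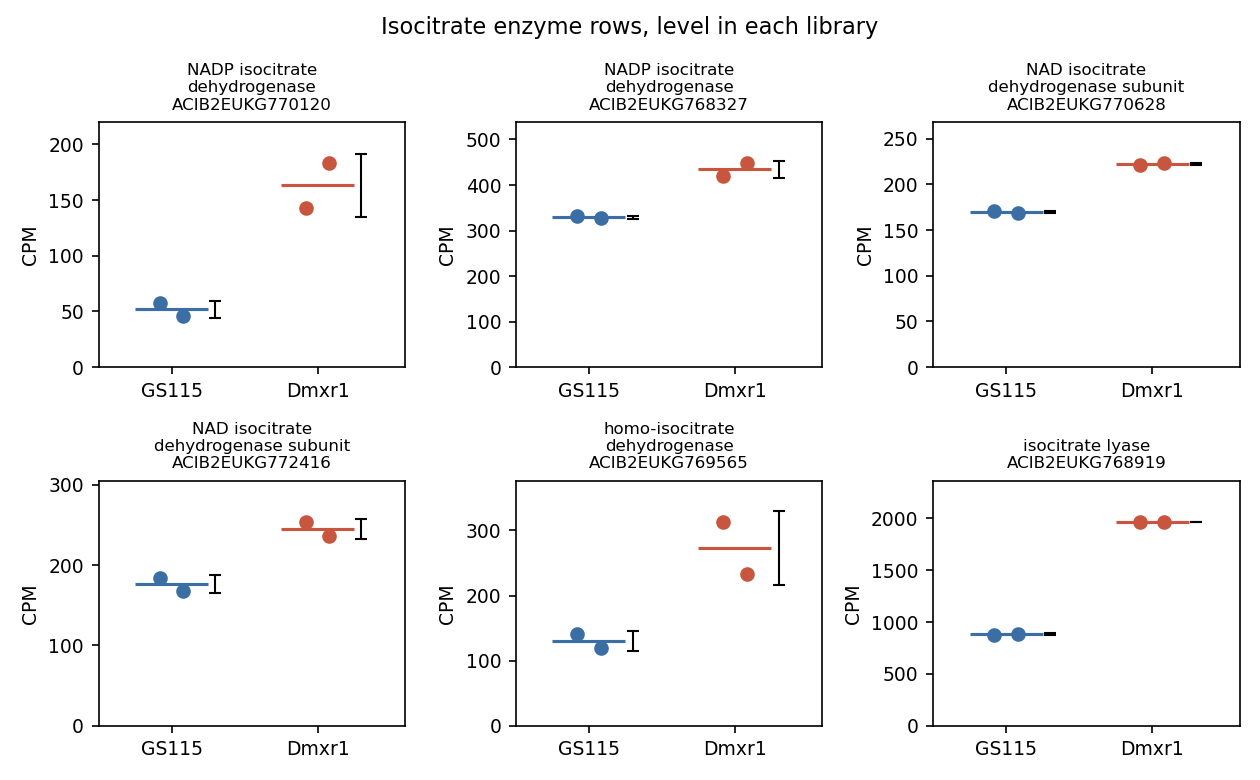
Level of each isocitrate enzyme row in CPM (vertical axes from 0, scaled per panel) in the GS115 and Dmxr1 libraries. Points are libraries, horizontal lines are strain means and black bars are 1 SD (n = 2). Both Dmxr1 points lie above both GS115 points in all 6 panels, with the widest relative gap for ACIB2EUKG770120.

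ACIB2EUKG770120, the NADP isocitrate dehydrogenase that was called, had 57.5 and 46.3 CPM in GS115 replicates 1 and 2. It had 143 and 183 CPM in Dmxr1 replicates 1 and 2. Both mutant libraries thus lay far above both GS115 libraries, with means of 51.9 ± 7.92 CPM in GS115 and 163 ± 28.3 CPM in Dmxr1 (SD, n = 2 each). The log2 fold change, called log2 change below, was 1.66 (SE 0.19, adjusted p = 6.15e-05, 95% interval 1.25 to 2.06), which ranked 7 from the highest of all genes tested. The whole interval lay above a log2 fold change of 1. In a test against that fold itself, which asks more than the call rule, the adjusted p was 0.0655.

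The other NADP row, ACIB2EUKG768327, had 332 and 327 CPM in GS115 and 421 and 448 CPM in Dmxr1. The groups did not overlap, and the GS115 libraries were close to each other. The log2 change of 0.40 (SE 0.19, adjusted p = 0.158) did not pass, with a 95% interval from -0.0023 to 0.80 that ended below that of ACIB2EUKG770120. The share of reads of both NADP rows that fell on ACIB2EUKG770120 was 14.8% (95% Wilson interval 14.0 to 15.5) and 12.4% (11.8 to 13.0) in the GS115 libraries. It was 25.4% (24.7 to 26.1) and 29.0% (28.4 to 29.7) in the Dmxr1 libraries. These intervals cover counting error only, and a share of reads is not a share of transcripts because the lengths are not known. The strain ranges were separate by a wide margin. Summed over both rows, the level was 381 ± 11.3 CPM in GS115 and 598 ± 47.6 CPM in Dmxr1.

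Isocitrate lyase, the first enzyme of the glyoxylate cycle, had 874 and 888 CPM in GS115 and 1964 and 1968 CPM in Dmxr1. The replicates of each strain were nearly level, so the difference was large against their spread. The log2 fold change was 1.16 (SE 0.21, adjusted p = 0.00240, 95% interval 0.714 to 1.603), at rank 22 from the top. Of the reads on the 5 rows that act on isocitrate itself, isocitrate lyase took 54.0% (53.5 to 54.5) and 55.6% (55.1 to 56.0) in GS115, against 65.4% (65.1 to 65.7) and 64.3% (64.0 to 64.7) in Dmxr1, again with Wilson intervals.

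The NAD isocitrate dehydrogenase subunits, which form the enzyme of the full tricarboxylic acid cycle, had smaller differences. ACIB2EUKG770628 had 171 and 169 CPM in GS115 and 221 and 223 CPM in Dmxr1, with a log2 change of 0.39 (SE 0.18, adjusted p = 0.145, 95% interval 0.011 to 0.77). ACIB2EUKG772416 had 184 and 168 CPM in GS115 and 254 and 236 CPM in Dmxr1, with a log2 change of 0.48 (SE 0.18, adjusted p = 0.0865, 95% interval 0.090 to 0.86). Neither row was called, although the strains did not overlap in either. In both, the upper end of the interval stayed below a log2 fold change of 1, so a doubling lay outside it.

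Homo-isocitrate dehydrogenase, the enzyme of lysine synthesis, had 141 and 119 CPM in GS115 and 314 and 233 CPM in Dmxr1. The strains did not overlap, but the mutant libraries differed more from each other than for any other member, with an SD of 57.2 CPM. The log2 fold change was 1.07 (SE 0.20, adjusted p = 0.00305, 95% interval 0.643 to 1.498). This call sat near the fold threshold. It was lost without GS115 replicate 2, where the log2 fold change was 0.95, and without Dmxr1 replicate 1, where it was 0.84 (adjusted p = 0.0418).

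**Figure D2:**
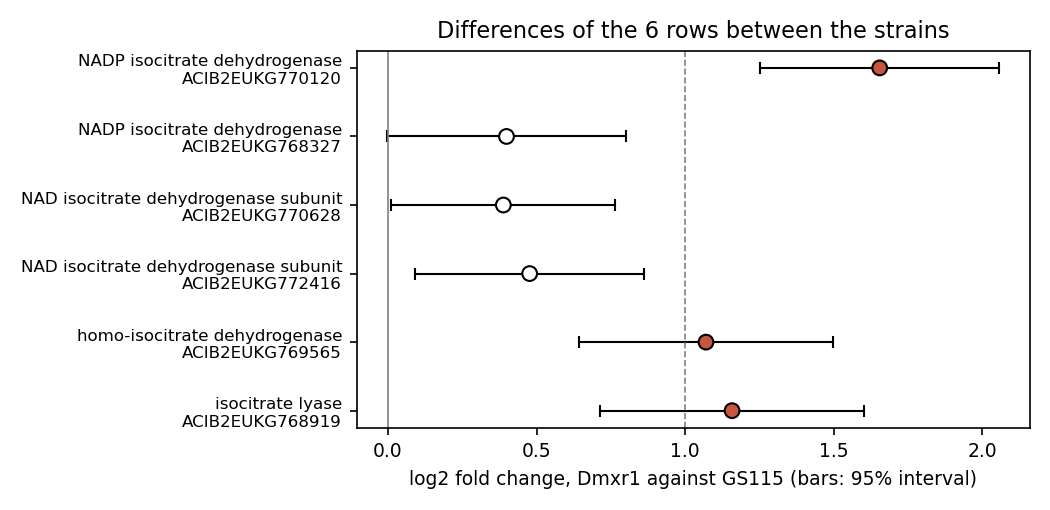
Log2 fold change of each isocitrate enzyme row in Dmxr1 against GS115 (horizontal axis), with 95% intervals of the edgeR fit as bars. Filled points are the 3 rows called higher, open points the rows not called, and the dashed line marks a log2 fold change of 1, which only the interval of ACIB2EUKG770120 clears.

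All 6 rows had both Dmxr1 libraries above both GS115 libraries, a pattern that 31.1% of all tested genes showed, while 31.3% showed the opposite order. The median log2 fold change of the 6 was 0.77 against 0.0041 over all genes tested. At the adjusted p alone the same count of 3 was higher in the main edgeR fit, where 5.07% of all genes were. ACIB2EUKG772416 also passed the adjusted p under DESeq2 (0.0454) and in edgeR with upper-quartile scaling (0.0412), but under no other alternative. In the test against the fold threshold itself 0 of the 6 passed, and 0.0922% of all genes did so upward.

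Ratios between rows of the same library do not depend on how libraries are scaled, so they describe whether the rows differed between strains by unequal amounts. Of the 15 pairs of rows, 11 had ratios that did not overlap between the strains and 4 had ratios that did. The pairs share rows, so they are not independent of each other. Every pair of a called row with an uncalled row was among the 11, so this count largely restates which rows were called. The share of gene pairs in general without overlap was not computed. The exact permutation test over 4 libraries cannot give a two-sided p below 0.333, which is the value of all pairs without overlap (adjusted p = 0.455 over the 15 pairs), so the ratios are given as a description.

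The log2 ratio of ACIB2EUKG770120 over ACIB2EUKG768327 was -2.53 and -2.82 in GS115 and -1.55 and -1.29 in Dmxr1. The difference of 1.25 between the strain means was far larger than the pooled SD of 0.20. The isozymes with the same annotation thus stood in different proportions in the GS115 and Dmxr1 libraries. The log2 ratio of ACIB2EUKG770628 over isocitrate lyase was -2.35 and -2.39 in GS115 and -3.15 and -3.14 in Dmxr1. It differed by -0.77 with a pooled SD of 0.021, the smallest spread of any pair. In Dmxr1, then, fewer reads of this NAD subunit were found per read of isocitrate lyase.

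In 4 pairs the strains overlapped. The log2 ratio between the NAD subunits, ACIB2EUKG770628 over ACIB2EUKG772416, was -0.11 and 0.0060 in GS115 and -0.20 and -0.079 in Dmxr1. These overlapped, with a difference of -0.089 and a pooled SD of 0.083. ACIB2EUKG768327 over ACIB2EUKG770628 had log2 ratios of 0.96 and 0.95 in GS115 and 0.927 and 1.004 in Dmxr1, which also overlapped. The difference was 0.0099 with a pooled SD of 0.039, so the NADP row that was not called and this NAD subunit differed between strains by almost the same amount. Homo-isocitrate dehydrogenase over isocitrate lyase overlapped too, with a difference of -0.099 and a pooled SD of 0.26, as did ACIB2EUKG768327 over ACIB2EUKG772416, with a difference of -0.079. ACIB2EUKG770120 did not overlap against isocitrate lyase (difference 0.49, pooled SD 0.24) or against homo-isocitrate dehydrogenase (0.59, pooled SD 0.39). Single libraries weighed on both differences. The first was 0.33 without GS115 replicate 2 and 0.32 without Dmxr1 replicate 2, and the second was 0.20 without Dmxr1 replicate 2 and 0.98 without Dmxr1 replicate 1.

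**Figure D3:**
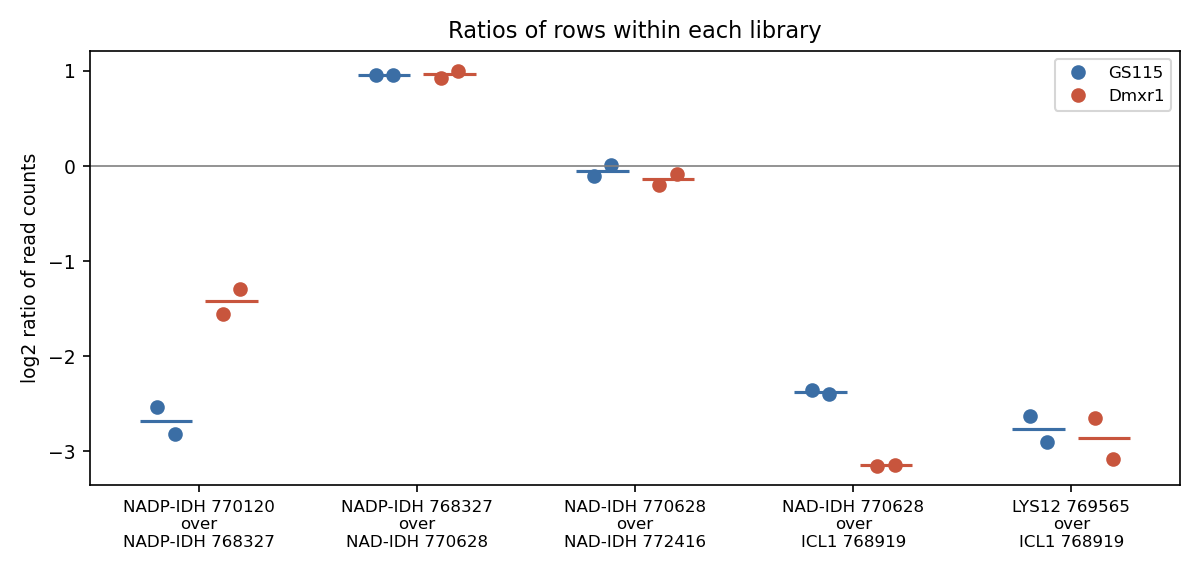
Log2 ratio of read counts between pairs of isocitrate enzyme rows within each library (vertical axis), with points for libraries and lines for strain means (n = 2). The strains are apart for ACIB2EUKG770120 over ACIB2EUKG768327 and for ACIB2EUKG770628 over isocitrate lyase, and overlap in the other pairs shown.

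Of the 14 genes of the NADPH supply list, ACIB2EUKG770120 was the 1 called higher and 2 were called lower, beside 0.535% and 3.26% of all genes. The median log2 fold change was 0.34. Without the NADP isocitrate dehydrogenase rows, 0 of 12 genes were called higher and 2 lower, and the median was 0.25. ALD6-1 (ACIB2EUKG773017), an aldehyde dehydrogenase whose *S. cerevisiae* counterpart ALD6 yields NADPH while oxidizing acetaldehyde, had 1824 and 1953 CPM in GS115 and 39.4 and 48.9 CPM in Dmxr1. It fell by 5.42 in log2 (adjusted p = 3.02e-09). The KEGG entry of this row names NAD as the cofactor, so its part in NADPH supply in *P. pastoris* is not settled by the annotation. Both mutant libraries lay far below both GS115 libraries. Its paralogue ALD6-2 (ACIB2EUKG770944) had a log2 fold change of 0.43 and was not called (adjusted p = 0.174).

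The rows listed for the oxidative pentose phosphate pathway, which supplies NADPH from glucose 6-phosphate, differed in both directions. The SOL1 row (ACIB2EUKG768374) was placed in the 6-phosphogluconolactonase family by its description, Sol1p, alone. Whether it encodes that activity is not settled by the annotation, so its fall is not shown to touch a step of NADPH supply. It had 710 and 487 CPM in GS115 and 285 and 274 CPM in Dmxr1. It fell by 1.10 in log2 (adjusted p = 0.00375), and the call was lost without GS115 replicate 1, at a log2 fold change of -0.80. The row described as 6-phosphogluconolactonase itself, SOL3 (ACIB2EUKG770790), had a log2 change of 0.53 (adjusted p = 0.0584) and was not called. The dehydrogenases that reduce NADP were not called. Glucose-6-phosphate dehydrogenase ZWF1 (ACIB2EUKG770419) had a log2 change of -0.45 (adjusted p = 0.173), and its strains overlapped at 300 CPM in GS115 replicate 2 and 304 CPM in Dmxr1 replicate 2. The 6-phosphogluconate dehydrogenase (ACIB2EUKG771716) had 1951 and 1790 CPM in GS115 and 1939 and 2609 CPM in Dmxr1 (adjusted p = 0.419).

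The mitochondrial malic enzyme (ACIB2EUKG771827), whose KEGG entry does not name NADP, had a log2 fold change of -0.29, the NADH kinase POS5 (ACIB2EUKG768687) of 0.19 and the NAD kinase ACIB2EUKG773042 of 0.23, and none passed the test. Of the folate rows, ACIB2EUKG769235, an NADP methylenetetrahydrofolate dehydrogenase by description and KEGG entry, had a log2 change of 0.39 and did not pass (adjusted p = 0.132). ACIB2EUKG772806, the same enzyme by its KEGG entry, had a log2 change of 0.51 (adjusted p = 0.0478). ACIB2EUKG772807, described as a C-1-tetrahydrofolate synthase but with a KEGG entry for its ligase activity alone, had one of 0.86 (adjusted p = 0.00910). ACIB2EUKG772806 and ACIB2EUKG772807 passed the adjusted p and missed the fold threshold. In the 5 lists, 11 rows outside the isocitrate enzymes did so, and without Dmxr1 replicate 1 the adjusted p of all 11 rose above the threshold, to between 0.0944 and 0.288 in edgeR. Leaving out GS115 replicate 1, GS115 replicate 2 or Dmxr1 replicate 2 ended it for 3, 2 and 4 of them. The results given below as passing at the adjusted p alone carry this limit.

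Around isocitrate most differences were small and in one direction, with few calls. All 11 rows of that list had positive log2 fold changes, 10 had both Dmxr1 libraries above both GS115 libraries (31.1% of all genes), and the median was 0.49. Isocitrate lyase was the 1 called higher (0.535% of all genes), and 2 were higher at the adjusted p alone (5.07% of all genes). At an unadjusted p under 0.05 in edgeR 10 were higher (13.5% of all genes). The list includes isocitrate lyase and both NAD subunits. Of the 8 rows without them, 0 were called and 1 was higher at the adjusted p alone. All 8 had positive log2 fold changes (median 0.52), and 7 had both Dmxr1 libraries above both GS115 libraries. Citrate synthase (ACIB2EUKG768207), which makes citrate from acetyl-CoA and oxaloacetate, had 2631 and 2654 CPM in GS115 and 4162 and 5159 CPM in Dmxr1. Its log2 change of 0.82 (adjusted p = 0.0272) missed the fold threshold. Aconitase ACO1 (ACIB2EUKG767883), which forms isocitrate from citrate, had 4055 and 4031 CPM in GS115 and 5612 and 5771 CPM in Dmxr1 (log2 fold change 0.49, adjusted p = 0.154). Malate synthase (ACIB2EUKG772859), which takes up the glyoxylate made by isocitrate lyase, had a log2 change of 0.65 (adjusted p = 0.0683). Downstream of the dehydrogenases, the 2-oxoglutarate dehydrogenase subunits KGD1 (ACIB2EUKG770664), KGD2 (ACIB2EUKG767873) and LPD1 (ACIB2EUKG769432) had log2 fold changes of 0.55, 0.47 and 0.47, and none was called.

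In lysine synthesis, 1 of 8 rows was called higher, homo-isocitrate dehydrogenase (0.535% of all genes in edgeR). Of the 8, 0 were called lower (3.26% of all genes). DESeq2 gave the same 1 and 0. At the adjusted p alone 4 were higher, and 5 higher against 0 lower had an unadjusted p under 0.05 in edgeR, beside 5.07% and 13.5% of all genes higher. The median log2 fold change was 0.58. The preceding enzyme, homoaconitase LYS4 (ACIB2EUKG772184), had 140 and 139 CPM in GS115 and 269 and 222 CPM in Dmxr1 (log2 fold change 0.82, adjusted p = 0.00850). The aminotransferase ARO8 (ACIB2EUKG769208), which also acts on aromatic amino acids, had a log2 change of 0.74 (adjusted p = 0.0157), and saccharopine dehydrogenase LYS1 (ACIB2EUKG768550), of the last step, one of 0.78 (adjusted p = 0.0169). LEU2 (ACIB2EUKG771992), listed with these rows though not counted among the 8, is the isopropylmalate dehydrogenase of leucine synthesis and a relative of the isocitrate dehydrogenases. It had 89.3 and 80.7 CPM in GS115 and 151 and 132 CPM in Dmxr1 (log2 fold change 0.73, adjusted p = 0.00984). With LEU2 in place of homo-isocitrate dehydrogenase, 0 of 8 rows were called and 4 were higher at the adjusted p alone, with a median of 0.58. The homocitrate synthase rows of the first step, ACIB2EUKG768413 and ACIB2EUKG769010, had log2 fold changes of 0.15 each and overlapped between strains. The second of them had 1576 and 1357 CPM in GS115 and 1482 and 1776 CPM in Dmxr1.

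A further list held 8 rows of glutamate and glutamine metabolism and of enzymes that spend NADPH. Of these, 0 were called in either direction by edgeR (0.535% of all genes higher and 3.26% lower) or DESeq2. In edgeR, 2 were higher and 1 lower at an unadjusted p under 0.05, where 13.5% and 18.5% of all genes were, and at the adjusted p alone 1 was higher and 1 lower, where 5.07% and 10.5% of all genes were. The higher one was glutamate synthase GLT1 (ACIB2EUKG770906), which forms glutamate from 2-oxoglutarate and glutamine (log2 fold change 0.81, adjusted p = 0.0217). The lower one was GDH2 (ACIB2EUKG770416), the NAD glutamate dehydrogenase that releases 2-oxoglutarate from glutamate (log2 fold change -0.84, adjusted p = 0.0100). The NADP glutamate dehydrogenase ACIB2EUKG768193, which consumes both NADPH and 2-oxoglutarate, had 2702 and 1929 CPM in GS115 and 3754 and 3894 CPM in Dmxr1, and its log2 fold change of 0.72 missed the test (adjusted p = 0.0515). Glutathione reductase GLR1 (ACIB2EUKG770920) and thioredoxin reductase TRR1 (ACIB2EUKG769651), which spend NADPH on antioxidant defence, had log2 fold changes of 0.18 and 0.26. Glutamine synthetase GLN1 (ACIB2EUKG772198) had one of -0.030 and overlapped between strains. None of these was called.

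Of 6 carrier rows, edgeR called 0 (0.535% of all genes higher and 3.26% lower) and DESeq2 called 0. In edgeR, 2 rows were higher at the adjusted p alone, as many as at an unadjusted p under 0.05, beside 5.07% and 13.5% of all genes. The succinate/fumarate carrier SFC1 (ACIB2EUKG772306), which in *S. cerevisiae* carries succinate into mitochondria in exchange for fumarate, had 807 and 753 CPM in GS115 and 1613 and 1389 CPM in Dmxr1. Its log2 change of 0.94 (adjusted p = 0.00753) fell short of the fold threshold, and without Dmxr1 replicate 1 the adjusted p was lost as well (log2 change 0.83, adjusted p = 0.103). The table describes this row as the succinate/fumarate transporter, although its KEGG entry names the citrate carrier. The citrate/oxoglutarate carrier YHM2 (ACIB2EUKG769290), linked in *S. cerevisiae* to NADPH supply in the cytosol, had a log2 change of 0.57 (adjusted p = 0.0354). The citrate carrier CTP1 (ACIB2EUKG771831) had one of 0.12 (adjusted p = 0.669). Of the 6 carrier rows, 4 had positive and 2 had negative log2 fold changes. The negative ones were the dicarboxylate carrier rows DIC1, ACIB2EUKG772022 at -0.23 (adjusted p = 0.484) and ACIB2EUKG772099 at -0.41 (adjusted p = 0.209).

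**Figure D4:**
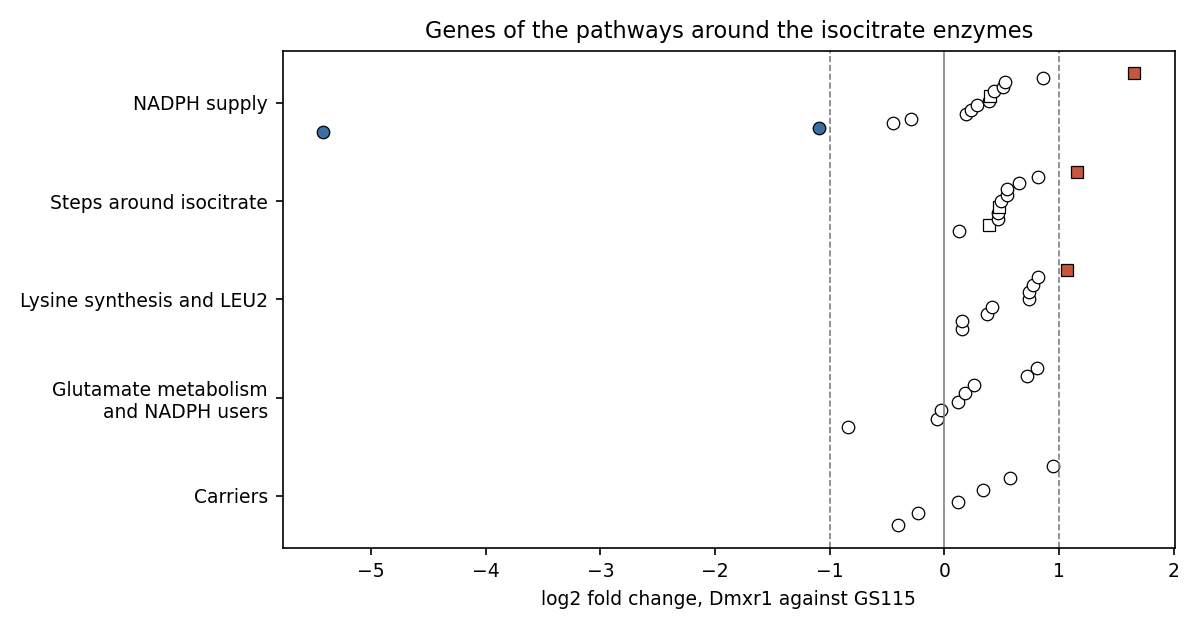
Log2 fold change in Dmxr1 against GS115 (horizontal axis) of each gene in 5 lists of neighbouring pathways (vertical axis, with LEU2 in the row of lysine synthesis). Squares are the isocitrate enzyme rows and circles other genes, with red for called higher, blue for called lower and white for not called, and dashed lines at log2 fold changes of -1 and 1. ALD6-1 at -5.42 stands apart on the left, and the called squares are the only points beyond 1.

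The genes whose pattern was most like that of isocitrate lyase were found by the Euclidean distance between mean-centred log2 CPM values over the 4 libraries. The nearest was ACIB2EUKG768246, with the UniRef name acetate transporter, at a distance of 0.16 and a log2 fold change of 1.29. It was followed by the uncharacterized ACIB2EUKG771811, the urea amidolyase ACIB2EUKG772878, the exopeptidase ACIB2EUKG768213 and a further acetate transporter by name, ACIB2EUKG768479, at distances of 0.23 to 0.26. Both acetate transporters by name carry descriptions that name export of ammonia instead. For ACIB2EUKG770120 the nearest was the copper amine oxidase ACIB2EUKG769032 at 0.40 (log2 fold change 1.30). The carnitine acetyltransferase ACIB2EUKG768637 followed at 0.41 (log2 fold change 1.93), then ACIB2EUKG768246, the biotin synthase ACIB2EUKG767824 and ACIB2EUKG771811 at 0.47 to 0.57. The urea amidolyase and the exopeptidase were not called. With 4 libraries, the distance is a description only.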

How the data were processed

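Ribosomal RNA was removed before the libraries were made, per the labels. The submitters' processing notes name bcl2fastq 2.19.0.316, fastp 0.19.6, Bowtie2 and featureCounts 1.6.4, and the study's methods name the genome of *K. phaffii* CBS7435. The authors deposited raw read counts per gene. Whether counting used the strand, and what became of reads with several alignments, is unknown here. Near-identical, overlapping and antisense genes, and reads that the paired isocitrate enzyme rows may share, are therefore uncertain. Per-sample columns that matched no sample numbered 0.

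A gene was kept when 2 or more libraries had at least 5 counts (5425 of 5427). The strains were compared with edgeR 4.0.16 in R 4.3.3, using the quasi-likelihood F test, TMM factors and Benjamini-Hochberg adjustment over every gene kept. Adjusted p-values come from this fit. The standard error is the absolute log2 change over the root of F. The spread in F was moderated across genes, with 15.5 degrees of freedom for each isocitrate enzyme row. CPM are counts per 1000000 of TMM-scaled library size, and log2 CPM used a prior count of 2. The test against the fold threshold was glmTreat. The fit was tested on simulated data. Alternatives were other scalings, DESeq2 1.42.0, other filters, leaving out each library, and replicate blocks.

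The members, the 5 lists and the tests were chosen with earlier results of these data known, and rows were matched to the lists from annotation text. The rule for named genes took the 6 rows, all called list members, the uncalled list member with the highest level, rows sharing an enzyme name with a member, the 5 genes of nearest pattern to ACIB2EUKG770120 and to isocitrate lyase, and MXR1. Other list rows were named after their values were seen.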

Additional observations from a re-analysis of the deposited data

How the results depend on the processing

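ACIB2EUKG770120 and isocitrate lyase kept their calls under all 12 alternatives, with log2 fold changes of 1.47 to 1.82 and 1.14 to 1.24, and ACIB2EUKG768327, ACIB2EUKG770628 and ACIB2EUKG772416 were called under none of the 12. These alternatives covered other scalings, DESeq2, other filters, blocks and leaving out each library. Homo-isocitrate dehydrogenase lost its call without GS115 replicate 2 or Dmxr1 replicate 1, and without single libraries it ranged from 0.84 to 1.27. A lone library was then assumed to vary like the other strain's. Scaling by upper quartile or library size alone shifted the median of all genes to 0.066 and 0.079, from 0.0041.

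The test against the fold threshold left 0 of the 6 rows, with 5 genes higher and 16 lower in all. The adjusted p alone gave 275 and 567. Leaving out single libraries gave 23 to 56 higher and 94 to 290 lower genes, from 29 and 177.

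In the lists, the adjusted p alone gave 3 higher rows in NADPH supply, 2 around isocitrate, 5 in lysine synthesis with LEU2, 1 higher and 1 lower in glutamate metabolism and NADPH use, and 2 higher carriers. The test against the fold threshold left 0 higher in the first 3 lists and 1 lower in NADPH supply, ALD6-1. SOL1 lost its call with library size alone (log2 fold change -0.99), which left 1 lower. SFC1 gained one there (1.03) and with upper-quartile scaling (1.01), for 1 carrier higher. Without single libraries, NADPH supply had 1 to 2 higher and 1 to 2 lower rows, lysine synthesis with LEU2 0 to 1 higher and the carriers 0 to 1 higher.

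Deviations of same-numbered libraries from their strain means had a correlation of -0.14 across genes, so the numbers were not taken as pairs. With a replicate block, 28 genes were higher and 151 lower, and the isocitrate enzyme rows called numbered 3, while 6 of the 11 other list rows that passed the adjusted p alone no longer did. With the numbers crossed, an alternative chosen after seeing the data, the counts were 29, 169 and 3. With 2 libraries a strain the spread is estimated with little information, whereas the isocitrate enzyme rows had at least 1230 counts in every library.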
